A study of Homo sapiens with 12 samples.

Results

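Circular RNAs (circRNAs) were compared between T98G and LN229, 2 established human glioblastoma cell lines, both grown in normoxia. The members were the 3 T98G and the 3 LN229 normoxia libraries, 6 of the 12 libraries of the series, chosen by their labels alone. Per the labels, both lines grew in DMEM with serum at 37 °C in 95% air and 5% CO2, and carried no added gene or agent. The other 6 libraries are of the same lines in 1% O2 and 5% CO2, and they entered the fit only to estimate the spread and to show the same line difference in a second condition. The labels give no passage or clone, and do not state whether libraries were grown as separate cultures. The p-values below therefore measure only how far these libraries spread, which may be technical.

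A circRNA forms when the splicing machinery joins the end of a downstream exon back to the start of an upstream exon of the same transcript, which closes the RNA into a loop. The loop has no free ends, resists exonucleases and is therefore often longer lived than the messenger RNA of its host gene, the gene it is spliced from. Sequencing recognises it by reads that cross the back-splice junction, and brain tissue is known as a rich source of such loops, among them the CDR1 antisense loop that binds miR-7.

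The junction is what identifies a loop, so those of 11 loops are printed here: 4 with a higher CPM (depth-scaled reads) in every T98G library, 4 with a higher CPM in every LN229 library, and 3 of the most abundant, to which the values further on refer. Each runs 5′ to 3′, with the last 15 bases of the loop's last exon in lower case and the first 15 bases of its first exon in capitals. The letters were read from GENCODE transcripts of GRCh38 whose exons give the same genomic span and spliced length as the deposited hg19 loop, and are those of the transcript, not of reads.
ZBTB44, exon 2: agtcttcctctatagGACATTTCTGATTTA
DCBLD2, exons 2 to 3: ttatagataaacaagGTGATGGATGTGGAC
FANCL, exons 2 to 5: tcttggttgggataaGGAAGAGACTTCCAC
ERC1, exon 2: caggaggaaaaccagATATGGTGTAAGATA
VCAN, exons 8 to 12: gatggcagcacactgGTCGAATGAGTGATT
ATXN2, exons 2 to 5: gttatgcaaaaagagAGGTCGAAACAGTAA
CSNK1G3, exons 2 to 4: agttaggatctggagCTCTCTATCAATATC
MAN1A2, exons 2 to 5: ctatcaggagaggagGGAAGAGGAAGAACG
HIPK3, exon 2: atctcggtactacagGTATGGCCTCACAAG
CYP24A1, exons 3 to 11: gataatacgcctcagGGAAGGGGAAGACTG
ITGA4, exons 3 to 10: atgatggctttgaagGTAGCCCTAATGGAG
The search looked up 31 loops and found 1 junction for 30 of them. Of these 30, 15 began at exon 2 of the matched transcript, the position at which many abundant circRNAs are known to begin.

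The 6 libraries held 33553 junction reads, between 4298 and 7608 per library. They covered 7014 loops of 3250 host genes. Values are given as reads, or as CPM, the TMM-scaled reads relative to all junction reads of a library, in which 1 read of a normoxia library is worth 150 to 203 CPM. CPM are not relative to all RNA, so more loops per transcript, more transcripts per cell and more cells that make them cannot be told apart. Of 10 astroglial and neural marker genes, CD44, a cell surface receptor, had loops, with 3, 0 and 0 reads in LN229 and 4, 1 and 0 in T98G. The other 9, GFAP, OLIG2 and SOX2 among them, had no junction read, and neither had 6 fibroblast, 4 endothelial and 4 immune markers. A marker that makes no loop reads 0 whatever its messenger RNA, so these counts do not check the labelled cell type.

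The 6 libraries as a whole did not group by line. Over 243 tested loops, that of CYP24A1 left out, LN229 replicates 1 and 2 correlated with each other at r = 0.755 and T98G replicates 1 and 2 at r = 0.746 on the log2(CPM + 100) scale. Across the lines, the same 4 libraries correlated at 0.701 to 0.731, close to the values within a line but below both of them. LN229 replicate 3 stood apart, at 0.0311 to 0.0398 with its own replicates 1 and 2 and at 0.0035 to 0.0095 with T98G replicates 1 and 2. Its values with T98G hypoxia were 0.617 to 0.678, and those with LN229 hypoxia 0.255 to 0.651. T98G replicate 3 lay between, at 0.43 to 0.51 with its own replicates 1 and 2, and at 0.407 to 0.464 with the T98G hypoxia libraries. Normoxia replicates 1 and 2 of the lines correlated with T98G hypoxia at -0.0304 to 0.07 and with LN229 hypoxia at -0.003 to 0.467. By these values LN229 normoxia replicate 3 correlated more with each of the 6 hypoxia libraries than with replicates 1 and 2 of its own group, and whether a label or a culture accounts for this was not tested. Loops are not independent replicates, and these values describe the libraries only. The tested loops were picked by their reads over all 12 libraries, and the same rule applied to the normoxia libraries alone kept 138. The others passed only with hypoxia libraries counted, and how far the correlations depend on this choice was not tested. Both replicate 3 libraries stayed where their labels put them. Loops and hosts named for not overlapping between the lines are also given without replicate 3 of both lines where the fold moved by over 1.5 times. For the other loops and hosts named, MALAT1 apart, no such value is given.

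**Figure D1:**
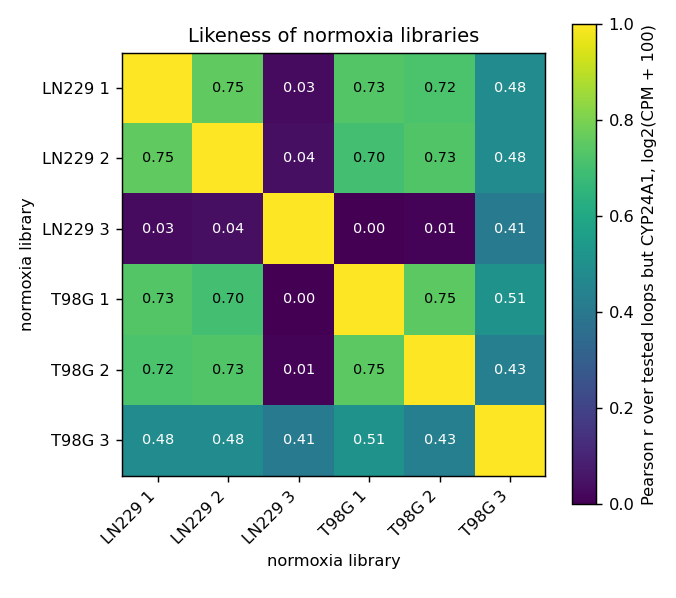
Pearson correlation between each pair of the 6 normoxia libraries over 243 tested loops on the log2(CPM + 100) scale, with the colour scale from 0 to 1 and the value in each cell. Replicates 1 and 2 of both lines form 1 block with values from 0.701 to 0.755, while LN229 replicate 3 has its highest value, 0.414, with T98G replicate 3.

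The loop of CYP24A1, the vitamin D 24-hydroxylase, shows the split most plainly (chromosome 20, 52773708 to 52788209, minus strand, hg19, exonic). Reads of all CYP24A1 loops numbered 2, 2 and 1880 in LN229 and 0, 1 and 679 in T98G. Replicate 3 was thus the high normoxia library in each line, and the lines overlapped. In hypoxia the loop itself had 1494, 387 and 1 reads in LN229 and 1327, 998 and 1369 in T98G, so the high libraries did not follow the replicate number there. CYP24A1 took 24.7% of the junction reads in LN229 replicate 3 (95% Wilson interval 23.8 to 25.7%) and 11.3% in T98G replicate 3 (10.5 to 12.1%). The count of 0 in T98G replicate 1 allows a share of up to 0.0577%. Intervals and floors cover counting error only.

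The comparison asked which circRNAs differ in abundance between the lines at normal oxygen. No loop did by the test. Loops were tested from 5 reads upward in 3 or more of the 12 libraries, which left 244 of 205 hosts, and 0 passed (0%; edgeR quasi-likelihood F test, Benjamini-Hochberg, threshold 0.05, smallest adjusted p = 0.984), and DESeq2 also called 0. Without adjustment, 4 loops had a p under 0.05 (1.64%), 1 with more reads in T98G and 3 with more in LN229, and DESeq2 gave 0 such loops. With the replicate number as a block in a fit of the 6 normoxia libraries alone, 1 loop passed, that of CYP24A1, with a log2 fold change of T98G over LN229 of -1.32 (adjusted p = 9.34e-15, edgeR quasi-likelihood with Benjamini-Hochberg). In that fit the value rests on the replicate 3 libraries, since the other 4 held 0 to 2 reads. In the same blocked design over all 12 libraries, 0 loops passed.

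Reads summed by host gave the same count. Of 416 hosts, 0 passed (0%; edgeR quasi-likelihood, Benjamini-Hochberg, smallest adjusted p = 0.988) and DESeq2 called 0, while 13 had an unadjusted p under 0.05 (3.12%) in edgeR and 6 in DESeq2. Of the 13, 4 had more reads in T98G and 9 more in LN229. The blocked fit of the 6 normoxia libraries again called CYP24A1 alone, with a log2 fold change of -1.30 (adjusted p = 1.1e-10, edgeR quasi-likelihood with Benjamini-Hochberg).

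The data could not show small differences. The spread between libraries of a group beyond counting error, as the square root of the common edgeR dispersion, was 0.511 for loops and 0.470 for hosts. It is 1 value shared by all loops or all hosts over the 12 libraries, and single loops can spread far more. The median SE of a log2 fold change was 0.78 for loops and 0.76 for hosts. The 95% interval of the difference lay within 2-fold either way for 2 of the 242 loops with an SE and within 4-fold for 100. Among hosts it did so for 7 and 187 of 414. For the other loops the interval reached beyond 4-fold, so a difference of that size is not shown to be absent. Over all loops the fitted log2 fold change of T98G over LN229 had a median of -0.02, with 119 loops above 0 and 125 below.

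A second, simpler reading asks in how many loops all 3 T98G libraries lay on 1 side of all 3 LN229 libraries in CPM. This held for 23 of 244 loops (9.43%), with T98G higher in 12 and lower in 11. For summed hosts it held for 34 of 416 (8.17%), 20 with T98G higher and 14 lower. In hypoxia the same held for 38 loops (15.6%) and 72 hosts (17.3%). If the line labels were exchangeable, 3 libraries would lie on 1 side of the other 3 with a probability of 0.1, ties aside. The normoxia shares of 9.43% and 8.17% were no higher than this, so lying apart does not by itself mark a loop or host as different. None of the 23 loops lay on the same side in hypoxia, and 1, of PTK2, lay on the opposite side. Of the 34 hosts, RP11-292B8.1 and PARD3 lay on the same side in hypoxia and ZBTB44, NCOA2, UIMC1 and ZCCHC2 on the opposite side. The loops and hosts named next are those with the smallest p among the non-overlapping ones. None passed: every one of the loops had the same adjusted p of 0.984 and every one of the hosts 0.988 (edgeR quasi-likelihood, Benjamini-Hochberg), so their values are a description.

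**Figure D2:**
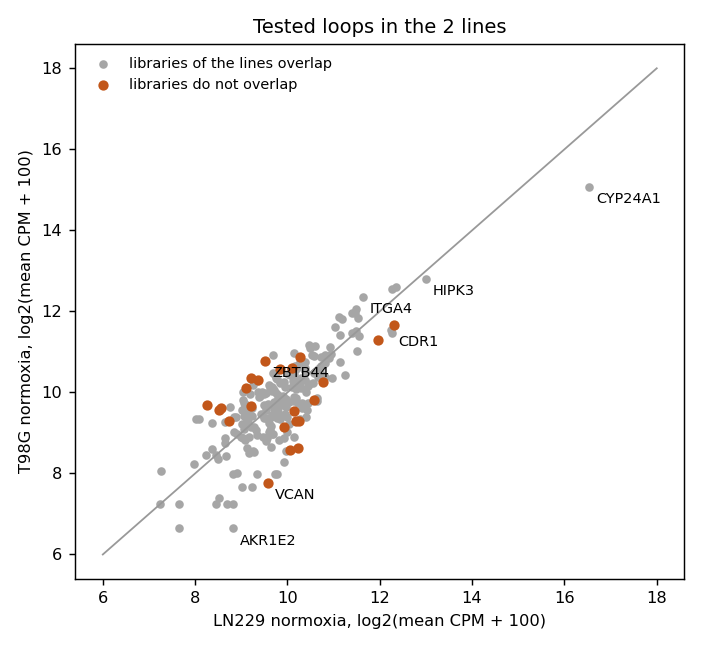
Mean abundance of each tested loop in LN229 normoxia (horizontal) and T98G normoxia (vertical), both as log2(mean CPM + 100), with the line of equal abundance. The 23 loops whose libraries do not overlap are coloured, and they lie on both sides of the line, with those of MAN1A2 and CSNK1G3 the most abundant of them.

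Among loops with more reads in T98G, that of ZBTB44, a zinc finger transcription factor of the BTB family, had the smallest p. It is the single exon loop shown above (chromosome 11, 130130751 to 130131824, minus strand). It had 6, 1 and 5 reads in LN229 and 12, 9 and 7 in T98G, or 636 ± 405 against 1659 ± 531 CPM (SD, n = 3 each). Every T98G library was above every LN229 library, and the log2 fold change was 1.31 (SE 0.61, 95% interval 0.03 to 2.60). In hypoxia LN229 held 4, 9 and 10 reads and T98G 4, 3 and 2, which met at 4.

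DCBLD2 encodes a neuropilin-like membrane receptor, and its loop had 1, 0 and 3 reads in LN229 and 3, 3 and 7 in T98G, a log2 fold change of 1.69 (SE 0.99). In reads, replicate 3 of LN229 equalled the lower T98G libraries, and the groups separate only after scaling to depth. Without replicate 3 of both lines the value was 2.44. The FANCL loop, of a ubiquitin ligase of the Fanconi anaemia repair pathway, had 3, 3 and 2 reads in LN229 and 4, 7 and 6 in T98G. Its log2 fold change was 1.13 (SE 0.70). A longer FANCL loop from the same first exon did not follow it, with 3, 7 and 4 reads against 5, 6 and 2 and a log2 fold change of -0.01 (SE 0.86).

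KMT2C encodes a histone H3 lysine 4 methyltransferase often mutated in cancer. Its loop had 6, 3 and 1 reads in LN229 and 6, 7 and 7 in T98G (log2 fold change 1.05, SE 0.67), so the lines met at 6 reads before scaling. Without LN229 replicate 1 the value was 1.72. Summed over its loops, KMT2C had 13, 10 and 7 reads in LN229 and 27, 11 and 14 in T98G (log2 fold change 0.91, SE 0.47). These sums overlapped in reads and separated only in CPM.

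The ERC1 loop, of a scaffold protein of vesicle trafficking at the cell cortex, had 1, 3 and 5 reads in LN229 and 6, 6 and 9 in T98G. The groups did not touch, and the log2 fold change was 1.26 (SE 0.83). The loop of DCUN1D4, a cofactor of cullin neddylation, had 6, 3 and 6 reads against 12, 5 and 8, which overlapped and separated only in CPM. Over all its loops DCUN1D4 had 16, 10 and 14 reads against 22, 22 and 18. The host value was 0.79 (SE 0.42) on the log2 scale and held the most reads of the hosts named on this side. The loops of PHKB, a phosphorylase kinase subunit of glycogen breakdown, and FAM120A, an RNA-binding scaffold, had 1 to 5 reads per library, with log2 fold changes of 1.18 (SE 0.93) and 1.25 (SE 1.03). The lines met at 3 reads in PHKB and at 2 in FAM120A, and only CPM separated them. Without replicate 3 of both lines, the PHKB value was 1.99.

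Among loops with more reads in LN229, that of NCOA2, a coactivator of nuclear receptors, had the smallest p (chromosome 8, 71126138 to 71128999, minus strand). It had 7, 6 and 7 reads in LN229 and 1, 2 and 2 in T98G, or 1101 ± 42 against 295 ± 117 CPM (SD, n = 3 each). The gap between the groups was larger than the spread within either, with a log2 fold change of -1.84 (SE 0.90, 95% interval -3.73 to 0.04). Over the alternatives tried it ranged from -2.09 to -1.59. In hypoxia LN229 held 2, 1 and 0 reads of it and T98G 4, 1 and 6.

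The loop of VCAN, the gene of the matrix proteoglycan versican, had 4, 4 and 4 reads in LN229 and 0, 1 and 1 in T98G. No T98G library reached LN229, and the log2 fold change was -2.31 (SE 1.26). Its predicted length of 5732 nt made it the longest of the loops named here, and it runs from chromosome 5, 82832826 to 82850857, on the plus strand. Summed over VCAN loops, LN229 had 5, 10 and 4 reads and T98G 3, 1 and 1 (log2 fold change -1.75, SE 0.87), with -1.16 without LN229 replicate 2 and -2.41 without T98G replicate 1. In hypoxia the sums were 9, 2 and 2 in LN229 and 10, 6 and 7 in T98G, which overlapped.

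ATXN2 encodes an RNA-binding protein of stress granules, and its loop had 5, 8 and 4 reads in LN229 and 2, 1 and 2 in T98G (log2 fold change -1.65, SE 0.96). CSNK1G3, a casein kinase of the plasma membrane, and MAN1A2, a Golgi mannosidase of N-glycan trimming, had far more reads behind their values. The CSNK1G3 loop had 25, 22 and 23 reads in LN229 and 13, 15 and 13 in T98G, or 3868 ± 354 against 2428 ± 556 CPM (SD, n = 3 each). Its log2 fold change was -0.68 (SE 0.41, 95% interval -1.53 to 0.17). The MAN1A2 loop had 35, 26 and 30 reads against 22, 12 and 21, with 5006 ± 589 against 3151 ± 693 CPM (SD, n = 3 each) and a log2 fold change of -0.66 (SE 0.41). Of the loops named for not overlapping, these had the smallest differences and also the smallest SE, and LN229 was higher in every library. In hypoxia both loops overlapped between the lines.

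Other tested loops of MAN1A2 shared its first exon and lay closer to 0. The one ending at 117984947 had 10, 10 and 7 reads against 7, 4 and 11, and the one ending at 117957453 had 8, 6 and 3 against 6, 4 and 3. PTP4A2, a small prenylated phosphatase, had 8, 7 and 11 reads in LN229 and 4, 4 and 6 in T98G, without overlap (log2 fold change -0.80, SE 0.54).

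Loops of 1 host did not always point the same way. ARHGAP5, a GTPase activating protein, had a single exon loop with 6, 4 and 11 reads in LN229 and 3, 3 and 3 in T98G (log2 fold change -1.09, SE 0.70). A longer loop from the same start, with 1 end further downstream at 32586493 on chromosome 14, had 14, 10 and 15 reads in LN229 and 26, 21 and 14 in T98G (log2 fold change 0.75, SE 0.48). PTK2, focal adhesion kinase, had 4 tested loops on the minus strand of chromosome 8 that share their first base, 141900868, and differ in their last. The loop ending at 141874411 had 4, 4 and 12 reads in LN229 and 3, 3 and 3 in T98G (log2 fold change -1.01). The loop ending at 141889570 had 1, 2 and 3 against 3, 3 and 3 (0.64). Without replicate 3 of both lines, the first value was -0.29. Of 31 hosts with several tested loops, 18 had loops with fitted values of both signs. Over all 244 tested loops, 119 fitted values were above 0 and 125 below, so unrelated signs within a host would often be mixed too. The 18 hosts are therefore not read as a result about loops of the same host. Such loops share a host and are not independent, and whether they differ from each other was not tested.

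**Figure D3:**
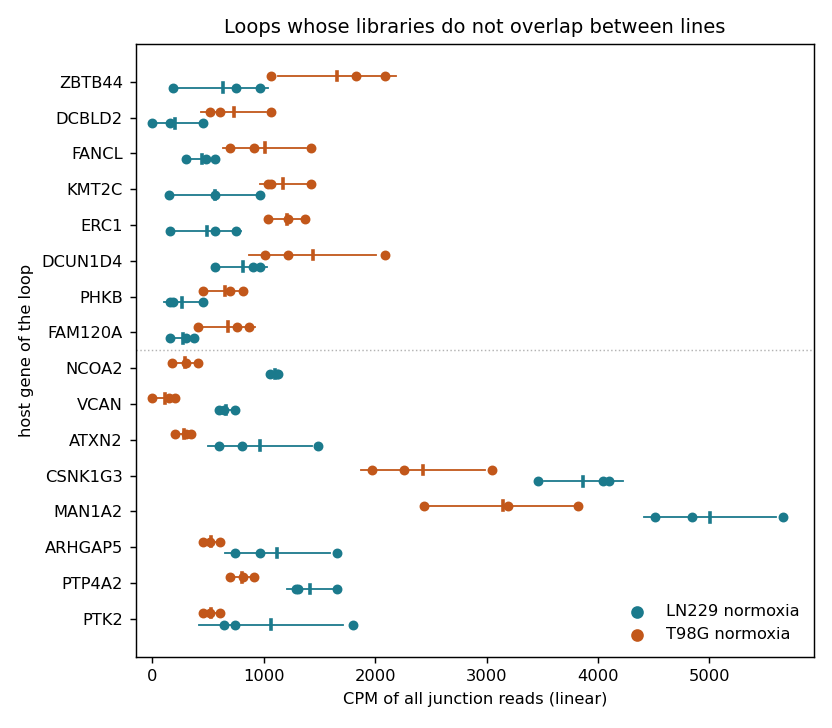
CPM of 16 loops in each of the 6 normoxia libraries, on a linear axis from 0, with LN229 and T98G in separate colours; the short bar is the mean and the horizontal line 1 SD either side, n = 3 libraries. Above the dotted line are the 8 loops with more CPM in every T98G library, below it the 8 with more in every LN229 library, where CSNK1G3 and MAN1A2 hold the highest values.

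Summing by host brought in genes whose single loops were too thin to test. SENP1, a protease that removes SUMO from proteins, had 1, 0 and 0 reads in LN229 and 5, 5 and 2 in T98G, with a log2 fold change of 3.32 (SE 1.83), which was 5.13 without LN229 replicate 1. In hypoxia LN229 held 5, 2 and 1 SENP1 reads and T98G 0, 2 and 0. PPP6R2, a regulatory subunit of protein phosphatase 6, had 2, 0 and 1 against 4, 3 and 4 reads (log2 fold change 1.89, SE 1.01), and 2.70 without LN229 replicate 1. The locus RP11-292B8.1 had 3, 0 and 0 against 6, 5 and 3 reads, and in hypoxia 1, 0 and 0 against 6, 2 and 2. All LN229 normoxia reads lay in replicate 1, without which the normoxia value was 5.34. T98G was above LN229 in both conditions, with log2 fold changes of 2.25 (SE 1.21) in normoxia and 3.05 in hypoxia, but neither value passed (adjusted p = 0.988 and 0.369, edgeR quasi-likelihood with Benjamini-Hochberg). BTBD10 had 2, 1 and 1 against 2, 4 and 5 reads, which met at 2 and separated only in CPM.

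On the LN229 side, TVAS5 had 6, 6 and 9 reads in LN229 and 1, 0 and 2 in T98G (log2 fold change -2.56, SE 1.15), and its 95% interval ran from -4.97 to -0.14. Without replicate 3 of both lines it stood at -3.16, CLASP2 at -3.00 in place of -2.31, and MELK at -2.56. CLASP2, which stabilises growing microtubules, had 9, 2 and 7 against 1, 0 and 2 reads. The smallest LN229 and the largest T98G value met at 2 reads, and only CPM separated them. ZMYM2, a zinc finger protein of a corepressor complex, had 7, 2 and 4 against 0, 1 and 0 reads (log2 fold change -3.13, SE 2.00), and -5.10 without T98G replicate 2, which held its only T98G read. MELK, a kinase of dividing cells that is known from glioma stem cells, had 5, 3 and 6 against 0, 1 and 2 reads (log2 fold change -1.96, SE 1.06). UBXN7, a cofactor of the p97 segregase, had 13, 11 and 10 against 5, 6 and 4 reads, with 1849 ± 286 against 918 ± 309 CPM (SD, n = 3 each) and a log2 fold change of -1.01 (SE 0.58). Its groups did not overlap in reads or in CPM. In hypoxia UBXN7 had 7, 20 and 14 reads in LN229 and 5, 3 and 14 in T98G, which overlapped.

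The most abundant loops overlapped between the lines, MAN1A2 apart. The HIPK3 loop, of a nuclear kinase and among the best known circRNAs, had 60, 39 and 48 reads in LN229 and 50, 33 and 37 in T98G (log2 fold change -0.20, SE 0.47, 95% interval -1.20 to 0.79). RARS, an arginyl tRNA synthetase, had 26, 32 and 34 against 28, 40 and 36 reads (log2 fold change 0.27, SE 0.41). XPO1, the main nuclear export receptor, had 35, 37 and 13 against 37, 35 and 28 (0.30, SE 0.47). ASXL1, a Polycomb-associated chromatin protein, had 16, 16 and 17 against 21, 29 and 14 (0.50, SE 0.43). In these 4 loops neither line was set apart, and the intervals still allow differences of over 1.5 times.

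In a further 3 abundant loops, replicate 3 of each line differed from replicates 1 and 2 and lay nearer the hypoxia libraries. ITGA4, an integrin subunit, had 27, 26 and 0 reads in LN229 and 40, 34 and 11 in T98G, low in replicate 3 of each line, and 0 in all 6 hypoxia libraries. CDR1, the miR-7 sponge locus, was high in replicate 3 instead, with 3, 4 and 86 against 3, 1 and 52 reads, and high in every hypoxia library, with 94, 72 and 65 against 84, 67 and 79. SPECC1, which encodes a cytospin, had 11, 12 and 69 against 6, 6 and 39, and in hypoxia 59, 82 and 58 against 47, 63 and 59. Within the replicate numbers, T98G had more ITGA4 reads in 3 of 3 and fewer SPECC1 reads in 3 of 3. The lines overlapped, however, and the fitted log2 fold changes were 0.76 (SE 0.78) and -0.79 (SE 0.68). The labels do not say what a number shares. How often all 3 numbers go the same way over all loops or hosts was not counted. GUSBP1 had 20, 22 and 6 against 29, 22 and 19 reads, and as a pseudogene with near-identical copies its count is uncertain.

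Large fitted differences mostly came from LN229 replicate 3. Of the 20 loops with the largest fitted log2 fold change, 17 had a negative sign, and in 13 most LN229 reads were those of replicate 3. The loop of AKR1E2, an aldo-keto reductase, had 0, 0 and 7 reads in LN229 and none in T98G, and that of AKAP12, an anchor of protein kinase A, had 0, 0 and 18 against 1, 1 and 3. PRKAR1B, a regulatory subunit of that kinase, had 0, 0 and 15 against 0, 0 and 3. None of these lay apart from T98G in all 3 libraries. A mitochondrial loop under the name OK/SW-cl.16 had 2, 5 and 7 against 0, 0 and 3 reads and an unadjusted p under 0.05.

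Of circRNAs known by name and matched by circBase identifier, 10 were found and 5 had enough reads to test. HIPK3 and CDR1 are given above. The ZNF609 loop, known from muscle cells as translated, had 10, 8 and 10 reads in LN229 and 4, 2 and 20 in T98G, with a log2 fold change of -0.10 (SE 0.58). T98G replicates 1 and 2 were below all LN229 libraries and replicate 3 above them. The FBXW7 loop, reported to code for a peptide in glioma, had 18, 18 and 10 against 19, 13 and 15 reads (0.09, SE 0.42). PVT1, a long noncoding RNA near MYC, had 2, 2 and 4 against 2, 2 and 10 (0.82, SE 0.74). CCDC66 had 2, 0 and 3 reads against 8, 2 and 2, under the filter. SMARCA5, FOXO3 and SHPRH had 0 or 1 read in every normoxia library.

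Most hosts with reads were shared by the lines. Over 3 libraries, LN229 had reads of 2658 hosts and T98G of 2546, and 1954 had reads in both, 73.5% of the LN229 hosts and 76.7% of the T98G hosts. These shared hosts held 92.0% of the LN229 and 92.3% of the T98G junction reads. Single loops overlapped less, with 2894 shared of 5126 in LN229 and 4782 in T98G, and 1710 loops had 1 read over the 6 libraries. For loops of so few reads, sampling and absence cannot be told apart.

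Hosts seen in 1 line only were therefore counted from at least 5 reads in at least 2 libraries of that line, with 0 reads in the 3 normoxia libraries of the other. As the reads choose these hosts, the counts carry no test. T98G had 17 such hosts of 794 with enough reads (2.14%), with 5 to 10 reads each, and LN229 had 33 of 880 (3.75%), with 5 to 12. Set against a floor of 3 counts over the group at 0, their read rates gave folds of 1.76 to 3.52 in T98G and 1.58 to 3.79 in LN229. The reads of the higher line were taken without their counting error, and they also chose the hosts. These folds are therefore not lower limits of a line difference. Without replicate 3 of both lines the numbers of such hosts were 11 and 19, and leaving out other libraries moved these numbers further. The hypoxia libraries, which the rule did not use, showed 14 of the 17 T98G hosts also in LN229 and 24 of the 33 LN229 hosts also in T98G. That left 3 hosts with no read in any LN229 library, FMR1, PCDHGB4 and SMG1P5, and 9 with none in any T98G library.

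The T98G host with the most reads was MARCH7, a membrane-associated ubiquitin ligase, with 3, 4 and 3 reads against 0 in LN229, but 1, 2 and 1 in LN229 hypoxia. FMR1, the translation regulator lost in fragile X syndrome, had 0, 6 and 2 reads in T98G and none in any of the other 9 libraries. SMU1, a splicing factor of the activated spliceosome, had 3, 1 and 4 reads. SAP130, a subunit of a histone deacetylase complex, had 4, 4 and 0, and MYSM1, a histone H2A deubiquitinase, 4, 2 and 1. GOLGB1, the Golgi matrix protein giantin, had 2 reads in each T98G library. FAM193A, RNF170, USP48 and G2E3 completed the 10 with the most reads, with 5 or 6 each. USP48 had 5, 1 and 1 reads in LN229 hypoxia, more than its own line had there.

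In LN229, PIK3C3, the class III phosphoinositide kinase of autophagy, led with 2, 5 and 5 reads against 0 in T98G, over 6 loops. METTL3, the catalytic subunit of the RNA m6A methyltransferase, had 3, 4 and 4 reads, all of 1 loop, and 1, 2 and 8 in T98G hypoxia. SUPT20H, of the SAGA coactivator complex, had 2, 2 and 5 reads. SMO, the signal transducer of the Hedgehog pathway, had 3, 3 and 2, also of 1 loop, and 0, 4 and 2 in T98G hypoxia. EFR3A had 2, 2 and 3 reads. These 5 hosts had reads in all 3 LN229 libraries, and so had 14 of the 33 in all.

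NTM, the neural cell adhesion molecule neurotrimin, had 4, 3 and 0 reads in LN229 and none in the other 9 libraries, so replicate 3 of its own line also lacked it. CHD7, a chromatin remodeller, had 4, 3 and 0, and ATP13A3, PCNXL4 and PPP4R3A had 7 reads each in 2 libraries. PPP4R3A, a regulatory subunit of protein phosphatase 4, was at 0 in T98G normoxia but had 5, 5 and 3 reads in T98G hypoxia, against 1, 2 and 0 in LN229 hypoxia. In 10 of the 33 LN229 hosts and 1 of the 17 T98G hosts, replicate 3 held most of the reads. The part of that library in these counts was not tested.

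**Figure D4:**
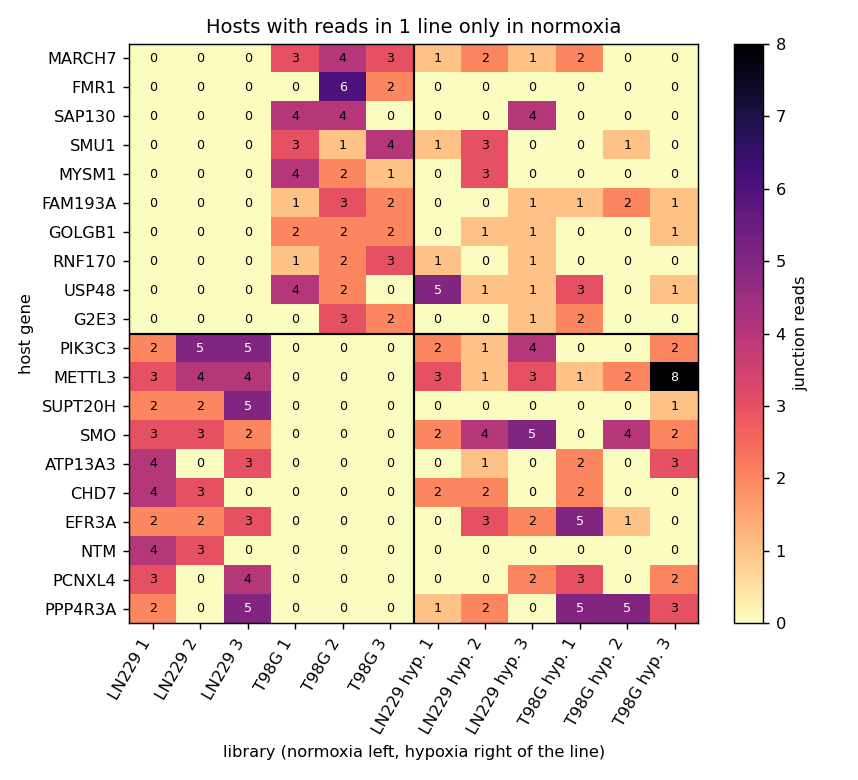
Junction reads, on a colour scale and as numbers, of the 10 hosts with the most reads seen in T98G only (above) and in LN229 only (below) among normoxia libraries. To the right of the vertical line are the hypoxia libraries, in which MARCH7 has 1, 2 and 1 LN229 reads and METTL3 1, 2 and 8 T98G reads, while FMR1 and NTM stay at 0.

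Of the 10 host lists, 0 members passed the test, against 0 of all 416 hosts (edgeR quasi-likelihood, Benjamini-Hochberg). As no host passed at all, this count was fixed in advance, and no list was tested as a set. Among all 416 hosts, 13 had an unadjusted p under 0.05 in edgeR, and DESeq2 called 0. Medians are read against -0.03 for all hosts. Of 16 tested adhesion, matrix and cytoskeleton hosts, 8 had a positive and 8 a negative fitted value, with a median log2 fold change of -0.17. Besides VCAN, they included the formin DIAPH3 with 1, 1 and 1 reads in LN229 and 5, 7 and 1 in T98G, the filopodial myosin MYO10 with 6, 4 and 6 against 2, 3 and 2, and the membrane linker EZR with 6, 3 and 1 against 11, 7 and 3. MYO10, like VCAN, did not overlap between the lines in either reads or CPM, while DIAPH3 and EZR did overlap.

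The receptor kinase, RAS and PI3K list had 7 tested members, from -0.92 to 0.88, with a median of -0.00. The adaptor GRB10 had 10, 2 and 0 reads over all its loops in LN229 and 10, 6 and 4 in T98G. The receptor IGF1R had 3, 4 and 4 against 7, 4 and 3. In the TGF-beta, Wnt, Notch and Hippo list, 5 of 7 were positive, with a median of 0.27. CSNK1G3 was its negative member with the smallest p, and the Wnt coreceptor LRP6 had 3, 1 and 0 against 1, 3 and 6 reads. FAT1, a giant cadherin, had 24, 16 and 11 against 23, 23 and 20 (log2 fold change 0.52, SE 0.38).

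Nuclear hosts were split as well. Of 14 chromatin regulators, 6 were positive and 8 negative (median -0.17), with KMT2C on the T98G side and NCOA2 on the LN229 side. SETD2, the H3 lysine 36 methyltransferase, had 3, 10 and 4 against 4, 1 and 3 reads, and SFMBT2, a Polycomb group protein, had 0, 0 and 14 against 0, 0 and 5, so its reads lay in replicate 3 alone. The DNA replication and repair list had 6 tested members and a median of -0.51. Its mismatch repair member PMS1 had 17, 15 and 6 against 27, 22 and 10 reads (0.78, SE 0.50), more in T98G under each replicate number but overlapping. RPA1, which binds single-stranded DNA, had 6, 0 and 2 against 0, 0 and 2, and the helicase BRIP1 6, 4 and 4 against 1, 0 and 6.

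The cell cycle and mitosis list had 11 tested members and a median of -0.22. Besides CLASP2, cyclin B1 (CCNB1) did not overlap between the lines, with 6, 3 and 3 against 0, 2 and 2 reads (log2 fold change -1.36, SE 0.97). The centrosome gene CEP192 had 24, 19 and 11 against 20, 31 and 19. The splicing and circRNA biogenesis list, whose proteins could bear on loop formation itself, had 6 tested members and a median of 0.17. PTBP2, the neural splicing repressor, had 5, 1 and 0 reads against 8, 3 and 5, and its relative PTBP3 had 5, 1 and 11 against 3, 0 and 4. Loop reads of such a host do not measure its protein.

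The hypoxia response and glycolysis list had 4 tested members with a median of 0.36, all with a positive fitted value. TET2, a DNA demethylase, had 2, 3 and 4 reads in LN229 and 4 in each T98G library, and PLOD2, a collagen lysyl hydroxylase, had 11, 20 and 36 against 23, 17 and 23 (log2 fold change 0.04, SE 0.45). In the neuronal and glial list, 4 tested members had a median of 0.56. DLG1, a scaffold of cell junctions, had 2, 9 and 3 against 9, 5 and 7, and ATRNL1, an attractin-like membrane protein, had 25, 19 and 1 against 20, 23 and 13. The vitamin D, steroid and prostaglandin list had 3 tested members and a median of -1.40, with PLA2G4A, a phospholipase that releases arachidonic acid, at 2, 1 and 5 against 0, 0 and 2 reads. Its summed reads, 4, 4 and 1891 against 2, 3 and 684, were nearly all CYP24A1 in replicate 3.

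No measure of library makeup reached a p under 0.05, which 3 libraries against 3 cannot give: the smallest p of the exact permutation test is 0.1. Exonic loops held 87.6 ± 1.42% of reads in LN229 and 87.9 ± 0.96% in T98G (SD, n = 3; exact permutation p = 0.9, two-sided). Intronic loops held 3.67 ± 0.779% and 3.15 ± 0.758% (SD, n = 3; exact permutation p = 0.5). Loops listed in circBase held 88.7 ± 2.24% and 87.9 ± 1.73% (SD, n = 3; exact permutation p = 0.7). At an equal depth of 4297 reads, with CYP24A1 left out, 2232 ± 14.7 loops were seen in LN229 and 2225 ± 94.4 in T98G (SD, n = 3; exact permutation p = 1). Of 22 autosomes, chromosome 11 alone did not overlap, with 4.65 ± 0.0543% of reads in LN229 and 3.95 ± 0.346% in T98G (SD, n = 3; exact permutation p = 0.1). Under each replicate number, T98G had the higher share on 2 of the 22 autosomes and the lower on 3. Chromosome 2 had the largest difference, with 8.92, 10.5 and 7.49% in LN229 and 10.8, 11.3 and 8.81% in T98G, higher in 3 of 3 numbers but overlapping (exact permutation p = 0.3). The mitochondrial genome held 0.530, 0.859 and 0.986% against 0.423, 0.372 and 0.715%, lower in 3 of 3 (exact permutation p = 0.2). These readings by number were chosen after the values were seen.

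The same line difference was read in hypoxia. Across the 244 loops, the fitted log2 fold changes of T98G over LN229 in the 2 conditions, which share no library, had a Pearson r of -0.273 and a Spearman correlation of -0.214, and 110 had the same sign. Across 416 hosts, r was -0.148. These are descriptions across loops and hosts, which are not independent. Whether the line difference itself differed between normoxia and hypoxia was tested by the interaction, and 0 loops and 0 hosts passed (edgeR quasi-likelihood, Benjamini-Hochberg). In hypoxia 0 loops and 0 hosts passed as well, with 20 loops and 42 hosts at an unadjusted p under 0.05.

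**Figure D5:**
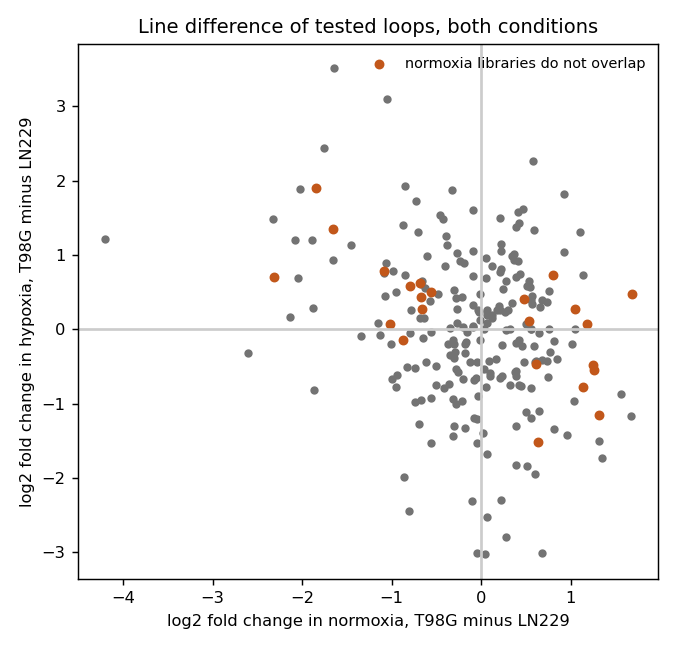
Fitted log2 fold change of T98G over LN229 for each of 244 tested loops, in normoxia (horizontal) and hypoxia (vertical). The 23 loops whose normoxia libraries do not overlap are coloured, and none of them is also set apart on the same side in hypoxia.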

How the data were processed

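Back-splice reads of 6 normoxia libraries were compared. The deposited table gives a whole-number count per loop and library and, beside it, a log2 value made by the authors. CASAVA 1.8, BWA and hg19 come from the submitters' processing notes, which give no roles. No source used here names the circRNA caller or the scaling of the log2 values. The deposited predicted length of a loop was copied as it stands. Loops with no host name held 0.87% of normoxia reads and stayed in the totals.

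Counts were fitted in edgeR 4.0.16 (R 4.3.3), with 1 mean per group over 12 libraries, TMM scaling and the two-sided quasi-likelihood F test. Loops or hosts needed at least 5 reads in at least 3 libraries. DESeq2 1.42.0 and limma 3.58.1 on the log2 values were alternatives, with other scalings, filters and libraries left out. The members, the lists and the rule for named genes (up to 8 per direction of smallest p without overlap, the 10 most abundant loops, 10 hosts per line, up to 4 per list) were chosen with earlier results of these data known. Some genes this rule names are not reported here. Lists covered adhesion, growth signalling, TGF-beta and Wnt, chromatin, repair, mitosis, splicing, hypoxia, neural and vitamin D genes.

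Same-numbered libraries deviated together from their group means (r = 0.400, 0.337 and 0.635 for replicates 1, 2 and 3). On this ground the numbers were used as a block in alternative fits and in the readings by number. The labels do not say what a number shares. Between different numbers, replicates 1 and 2 gave 0.269 and 0.313, not far below their same-number values. Deviations from a group mean balance each other, so replicates 1 and 2 correlate across the lines once replicate 3 stands apart in both. The values therefore show that the replicate 3 libraries deviated alike, and do not show that replicates 1 and 2 are paired by number.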

Additional observations from a re-analysis of the deposited data

Results flagged for a closer look

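In hosts ZBTB44 and NCOA2, all T98G libraries lay on opposite sides of the LN229 libraries in the 2 oxygen conditions. ZBTB44 had a log2 fold change of T98G over LN229 of 1.37 (SE 0.60) in normoxia and -1.12 in hypoxia, with 6, 1 and 5 reads against 12, 9 and 7 and then 4, 9 and 10 against 4, 3 and 2, where the lines met at 4 reads and separated only in CPM. NCOA2 had -1.54 (SE 0.71) in normoxia and 1.70 in hypoxia, with 7, 6 and 7 reads against 2, 2 and 2 and then 2, 2 and 1 against 4, 3 and 8. The difference was tested by the interaction and did not pass in either (adjusted p = 0.376 in each, edgeR quasi-likelihood with Benjamini-Hochberg).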

How the results depend on the processing

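The count of 0 called loops and 0 called hosts was also found with RLE factors, without TMM, without a filter, with the filter on normoxia libraries, with DESeq2, with the 6 normoxia libraries alone, with CYP24A1 left out, without replicate 3 of both lines, without each normoxia library in turn and, for loops, with limma. The replicate block over 12 libraries gave 0 calls of each. The replicate block in the 6 normoxia libraries gave 1 loop and 1 host, CYP24A1 in each case, and changed no other call. All 32 named values kept their direction in the 512 alternative values and passed the threshold in none. As they were picked for lying apart in CPM in all 3 libraries of each line, the kept direction was largely fixed in advance. Hosts seen in T98G only numbered 1 with at least 10 reads, 11 without replicate 3 of both lines and 3 with 0 reads in all 6 LN229 libraries, and leaving out a library gave 5 to 47 against 17. Those of LN229 numbered 2, 19 and 9, and 10 to 71 against 33. The fewest came without T98G replicate 3 (5) and LN229 replicate 3 (10), the most without LN229 replicate 1 (47) and T98G replicate 3 (71). Totals of 4298 to 7608 reads limit all these values, since most loops had only a few reads per library.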

Other observations

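MALAT1, a nuclear long noncoding RNA, was singled out after its values were seen. Its summed junction reads were 16, 17 and 4 in LN229 and 3, 1 and 9 in T98G in normoxia, and 8, 6 and 5 against 2, 0 and 2 in hypoxia. LN229 was thus higher except under replicate number 3 in normoxia. The log2 fold change in normoxia was -1.42 (SE 0.71), and without replicate 3 of both lines it was -2.82, the host with the smallest adjusted p there (0.233; edgeR quasi-likelihood, Benjamini-Hochberg).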
